A study of Mus musculus with 15 samples.

Results

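Atf3 and 9 AP-1 and immediate-early genes, namely Fos, Fosb, Fosl2, Jun, Junb, Jund, Egr1, Ier2 and Ier3, were followed in pancreatic islets of NOD mice, a strain that develops autoimmune diabetes. They were taken by symbol as 10 of the 48709 genes of the deposited table, and all 10 were present and passed the filter on low counts. Islets came from NOD/ShiLtJ females aged 4, 6, 8, 10 or 12 weeks, with 3 mice at each age and 15 mice in all. No mouse was treated and none came from a strain without diabetes, so the 4-week mice served as the earliest reference and age is the difference between the groups. Islets were isolated with collagenase and picked by hand, and each library therefore held every cell type inside an islet at that age, including any infiltrating leukocytes. Library totals ran from 25407492 to 41616275 counts.

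Immediate-early genes are transcribed within minutes of a stimulus, before any new protein is needed. Many of them encode AP-1, a dimer of a Fos and a Jun protein, or of a Jun protein and a relative such as Atf3. The partners join through a leucine zipper, and the dimer binds regulatory DNA. Atf3 is induced by cellular stress and inflammatory signals in many cell types, islet beta cells among them, and it can dimerise with Jun proteins. Handling and enzymatic digestion of tissue are also known to induce this class of genes, and all islets here passed through digestion, whose part in the levels was not tested.

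Most members have few exons. In the annotation of the GRCm38 assembly, 6 of the 10 had at most 2 exons in their main transcript, against 8.09% of the genes kept for testing, and the median was 2 exons against 9. Atf3, Fos, Fosb and Fosl2 had 4 exons each, and Atf3 spanned 47744 bases, more than the median of 24548 over those genes. Atf3 lies on the minus strand of chromosome 1 from 191170296 to 191218039, and Fosl2 on the plus strand of chromosome 5 from 32135801 to 32157842. Fosb lies on the minus strand of chromosome 7 from 19302696 to 19310051, and Fos on the plus strand of chromosome 12 from 85473890 to 85477273. Jun is on the minus strand of chromosome 4 from 95049034 to 95052222, and Junb on the minus strand of chromosome 8 from 84974484 to 84978718.

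The bases just upstream of the RefSeq start of 5 members are shown because Atf3 and AP-1 bind the CRE and AP-1 elements and close variants. The 140 bases before the start are given 5′ to 3′ on the gene's own strand, from the RefSeq annotation of GRCm38.p6: chr1:191183334-191183473 (minus) for Atf3, chr7:19310046-19310185 (minus) for Fosb, chr8:84978749-84978888 (minus) for Junb, chr12:85473750-85473889 (plus) for Fos and chr4:95052223-95052362 (minus) for Jun. Capitals mark the short CRE core TGACG, which reads CGTCA where it lies on the other strand, and in Jun a spaced element of the form TGANNTCA. The RefSeq start of Atf3 lies inside the longer span given above.
Atf3: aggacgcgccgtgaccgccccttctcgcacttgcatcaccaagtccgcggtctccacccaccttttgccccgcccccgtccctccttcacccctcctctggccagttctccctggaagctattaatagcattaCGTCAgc
Fosb: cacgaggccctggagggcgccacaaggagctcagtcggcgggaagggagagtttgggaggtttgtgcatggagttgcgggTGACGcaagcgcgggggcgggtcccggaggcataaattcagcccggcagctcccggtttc
Junb: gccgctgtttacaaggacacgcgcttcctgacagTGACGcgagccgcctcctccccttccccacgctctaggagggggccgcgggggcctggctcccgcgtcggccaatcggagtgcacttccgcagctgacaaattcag
Fos: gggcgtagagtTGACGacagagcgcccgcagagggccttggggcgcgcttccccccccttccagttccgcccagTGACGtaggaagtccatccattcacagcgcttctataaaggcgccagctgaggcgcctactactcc
Jun: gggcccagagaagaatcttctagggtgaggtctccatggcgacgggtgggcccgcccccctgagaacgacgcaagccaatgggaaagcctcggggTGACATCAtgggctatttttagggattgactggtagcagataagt

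Among the 8 members with a RefSeq promoter entry, searched on both strands over the 250 bases before the start, 4 held TGACG, namely Atf3, Fos, Fosb and Junb, against 17.8% of all promoters. In Atf3 it ended 3 bases before the start, and Fos held 2 copies. Jun and Jund held TGANNTCA, a form that includes the full CRE and was found in 11.9% of all promoters. The window of Jund ended at 70697738 on chromosome 8, well upstream of that gene's start at 70698949 in the deposited table. No full CRE (TGACGTCA), AP-1 element (TGACTCA) or CArG box of SRF was found in these 8 windows, where 1.55%, 4.46% and 1.47% of all promoters held them. Egr1 and Ier2 had no promoter entry and were not searched, and neither were bases more than 250 before a start. Such matches describe the letters alone.

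Between 4 and 12 weeks 9 of the 10 members rose, at an adjusted p under 0.05 in edgeR's quasi-likelihood test, and none fell; over all genes tested, 26.3% rose in this comparison. Their median log2 fold change was 1.07, against -0.05 over all genes. The increases spanned a 4.38-fold rise of Atf3 and a 1.16-fold rise of Jund, and Fos was the member that did not pass. With the age groups compared gene by gene, 8 members had all 12-week mice above all 4-week mice, against 30.3% of all genes.

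**Figure D1:**
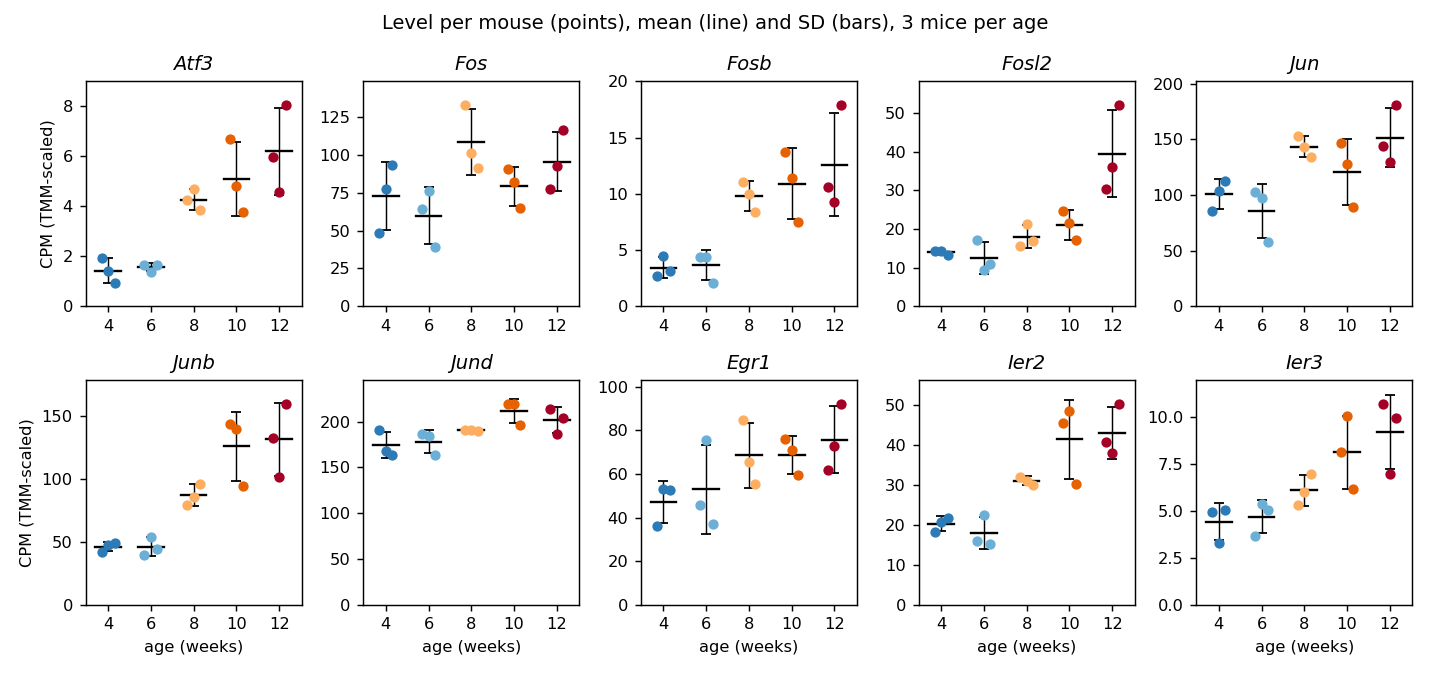
CPM of each member (vertical axes, linear and from 0, scaled by TMM) in each mouse by age in weeks, with the mean as a line and the SD as bars, 3 mice per age. Atf3, Fosb, Junb and Ier2 lay higher in every mouse of 8, 10 and 12 weeks than in any of 4 and 6 weeks, while Fos overlapped between the youngest and oldest groups.

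Atf3 was a rare transcript in the youngest islets. Its CPM, the counts scaled to library size, were 1.91, 1.41 and 0.90 in the 4-week mice, from 25 to 51 counts a library, and 1.62, 1.37 and 1.66 in the 6-week mice. They were 4.23, 4.67 and 3.82 at 8 weeks, 6.66, 4.80 and 3.76 at 10 weeks and 5.96, 4.55 and 8.02 at 12 weeks. Every mouse of 8 weeks or older therefore stood above every younger mouse, whereas the 8-, 10- and 12-week groups overlapped. This split was seen after the values were known, and 4 of the 10 members (Atf3, Fosb, Junb and Ier2) showed it, against 2.75% of all genes.

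The rise of Atf3 from 4 to 12 weeks was 2.13 on the log2 scale (SE 0.294, adjusted p = 0.000274, edgeR), and its change over the 5 ages passed a permutation test (100000 permutations of mice, p = 0.00094, 3 mice per age). At 8 weeks it already stood 1.59 above 4 weeks (SE 0.293, adjusted p = 0.0159), although this call was lost without the 4-week replicate 2 (adjusted p = 0.0676), the 4-week replicate 3 (0.0866, with a log2 change of 1.35) or the 8-week replicate 2 (0.0664). The step from 6 to 8 weeks was 1.45 (SE 0.290, unadjusted p = 0.000251), but its adjusted p was 0.122. In that step edgeR called 0% of all genes, with 2983 genes at an unadjusted p under 0.05, while DESeq2 called 543 and edgeR's exact test 157. Atf3 was among both, with adjusted p-values of 0.00119 in DESeq2 and 0.00104 in the exact test, and it also passed in edgeR's quasi-likelihood test without the 8-week replicate 1 (adjusted p = 0.0362).

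The other steps of Atf3 did not pass. The log2 change was 0.13 from 4 to 6 weeks (SE 0.299), 0.26 from 8 to 10 weeks (SE 0.275) and 0.29 from 10 to 12 weeks (SE 0.273), with adjusted p-values of 0.977, 0.511 and 0.834 in edgeR. Of the mean log2 rise from 4 to 12 weeks, 76.1% was reached at 8 weeks (69.5% to 84.4% on leaving out 1 mouse at a time) and 86.6% at 10 weeks.

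**Figure D2:**
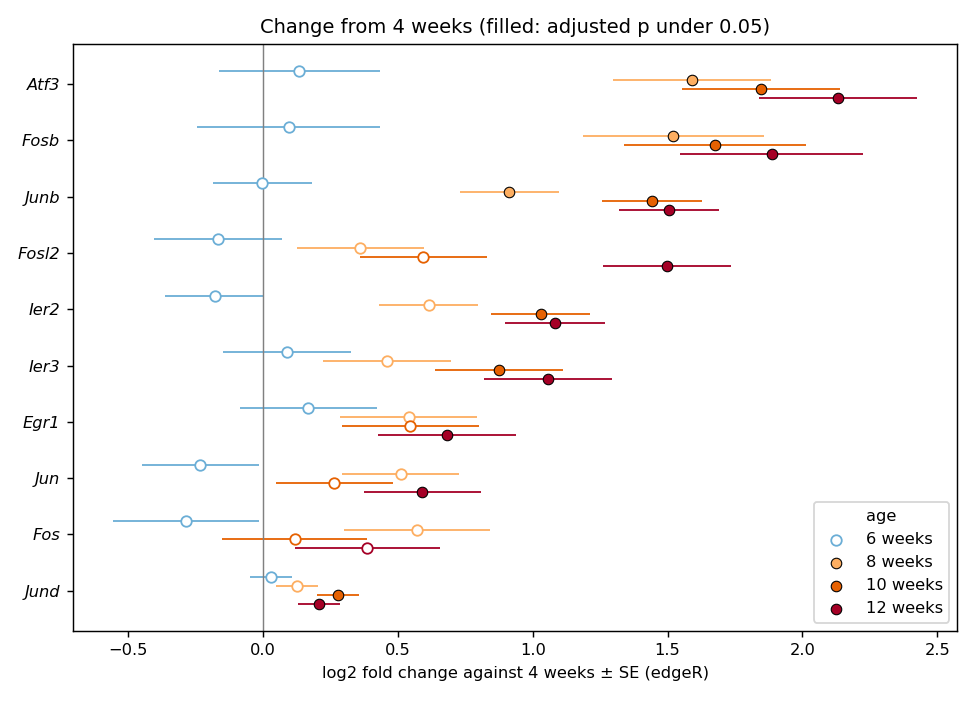
Log2 fold change of each member against 4 weeks with its SE (horizontal axis, edgeR, 3 mice per age), one row per gene and one colour per age; filled points have an adjusted p under 0.05. Atf3, Fosb and Junb were filled from 8 weeks on, Fosl2 at 12 weeks, and the 6-week points lay between -0.29 and 0.17.

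Among the Fos proteins, which cannot dimerise with each other and need a Jun partner, Fosb moved most like Atf3. Its CPM was 2.66, 4.45 and 3.15 at 4 weeks and 4.398, 4.39 and 2.09 at 6 weeks. In older mice it was 11.02, 10.0 and 8.36 at 8 weeks, 13.8, 11.4 and 7.51 at 10 weeks and 10.6, 9.29 and 17.9 at 12 weeks. No older mouse fell to the level of a younger one. Fosb rose by 1.89 on the log2 scale from 4 to 12 weeks (SE 0.338, adjusted p = 0.000812), and 83.1% of the rise was reached at 8 weeks, where it was 1.52 above 4 weeks (SE 0.337, adjusted p = 0.0313, edgeR). The 8-week call of Fosb was lost without any 1 of the 4-week mice and without the 8-week replicate 2 or 3 (adjusted p = 0.0598 to 0.145).

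Fosl2, which encodes Fra-2, had made a smaller share of its rise by 8 weeks than Atf3, and these shares were not tested. Its CPM was 14.4, 14.2 and 13.4 at 4 weeks, 17.1, 9.47 and 10.9 at 6 weeks and 15.6, 21.3 and 17.0 at 8 weeks. It was 24.8, 21.6 and 17.0 at 10 weeks and 30.4, 36.0 and 52.1 at 12 weeks, so that the 12-week mice stood above all others while the 8- and 10-week mice overlapped. From 4 to 12 weeks Fosl2 rose by 1.498 on the log2 scale (SE 0.239, adjusted p = 0.000466, edgeR). Of this rise, 23.9% was reached at 8 weeks (15% to 30.4% on leaving out 1 mouse at a time) and 39.5% at 10 weeks. At 10 weeks Fosl2 stood 0.59 above 4 weeks (SE 0.236, adjusted p = 0.0580, edgeR), just short of the threshold. All its 10-week mice lay above all 4-week mice, as they did for 26.1% of all genes. Its step from 10 to 12 weeks, 0.90 (SE 0.234, unadjusted p = 0.00202), was the only one of the 10 members with groups that did not overlap in that step, where 4.42% of all genes rose without overlap, and its adjusted p was 0.577.

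Fos itself, the founding member of the family, was abundant and variable. Its CPM was 48.5, 77.4 and 93.1 at 4 weeks, 64.1, 76.2 and 39.2 at 6 weeks and 133, 101 and 91.1 at 8 weeks. It was 90.4, 82.0 and 65.1 at 10 weeks and 77.6, 92.5 and 116 at 12 weeks. The 4- and 12-week mice overlapped, and the highest mouse of all was 8 weeks old. All 10-week mice lay below all 8-week mice by a narrow gap (90.4 against 91.1 CPM), in a step where 15.5% of all genes fell without overlap. That step of Fos, a log2 change of -0.45 (SE 0.269), did not pass (adjusted p = 0.228, edgeR). The log2 change from 4 to 12 weeks was 0.39 (SE 0.270, adjusted p = 0.243, edgeR), and that from 6 to 8 weeks, the largest of its steps, was 0.86 (SE 0.271, adjusted p = 0.181, with 0.0390 in DESeq2).

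Of the Jun proteins, Junb, which often acts against Jun at shared sites, changed most. Its CPM was 42.2, 47.6 and 49.2 at 4 weeks, 39.9, 54.3 and 44.4 at 6 weeks and 79.4, 85.8 and 96.4 at 8 weeks. It reached 144, 140 and 94.2 at 10 weeks and 133, 102 and 160 at 12 weeks. Junb rose by 1.51 on the log2 scale from 4 to 12 weeks (SE 0.186, adjusted p = 0.000192) and by 0.91 from 4 to 8 weeks (SE 0.184, adjusted p = 0.0215, edgeR), with 61.4% of the full rise at 8 weeks and 95.7% at 10 weeks. The 8-week call of Junb was lost in the same 5 cases (adjusted p = 0.0501 to 0.0908). Its step from 8 to 10 weeks, 0.53 (SE 0.182), had an adjusted p of 0.0594 in edgeR, and of 0.0186 in DESeq2; 16.8% of all genes were called in that step in edgeR and no member was.

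Junb overlaps Prdx2 on the opposite strand, and whether counting used strand is not given in the sources used here. Prdx2, an antioxidant peroxidase, held 50801 counts over the 15 mice against 39694 for Junb, and it fell by 0.42 on the log2 scale from 4 to 12 weeks (SE 0.0613, adjusted p = 0.000345, edgeR), the opposite direction. Jun and Jund each overlap an antisense gene with far fewer counts, Junos with 168 against 53412 and Gm11175 with 253 against 84668.

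Jun and Jund moved less. Jun, the main partner of Fos, had 86.0, 104 and 112 CPM at 4 weeks, 102, 96.8 and 58.0 at 6 weeks and 153, 143 and 134 at 8 weeks. It had 147, 127 and 88.7 at 10 weeks and 144, 130 and 181 at 12 weeks, so that the 8- and 12-week mice stood above the 4-week mice but the 10-week mice did not separate from them. From 4 to 8 weeks 11.3% of all genes rose without overlap, and the change of Jun did not pass (adjusted p = 0.165, edgeR). Jund, which is expressed steadily in many tissues, ranged from 163 to 219 CPM over the 15 mice, and its 3 values at 8 weeks lay between 190 and 191. The log2 changes from 4 to 12 weeks were 0.59 for Jun (SE 0.217, adjusted p = 0.0360) and 0.21 for Jund (SE 0.0785, adjusted p = 0.0395, edgeR), the latter with overlapping groups.

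Both calls were fragile. Without a filter on low counts the adjusted p was 0.0893 for Jun and 0.136 for Jund. That of Jun rose to between 0.0559 and 0.146 on leaving out the 4-week replicate 1 or 2 or the 12-week replicate 1 or 3. That of Jund rose to between 0.0961 and 0.149 without the 4-week replicate 2 or 3 or the 12-week replicate 1 or 3. It was 0.0783 for Jund in the exact test. With library totals in place of TMM the log2 changes were 0.84 for Jun and 0.45 for Jund (adjusted p = 0.00694 and 0.00133, edgeR). The median of all genes was then 0.20, and the size of the Jund rise thus depended on the scaling.

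Among the immediate-early members outside AP-1, Ier2, a short-lived nuclear protein, had 18.2, 20.8 and 21.7 CPM at 4 weeks, 15.9, 22.4 and 15.2 at 6 weeks and 32.1, 31.1 and 29.9 at 8 weeks. It had 45.4, 48.4 and 30.1 at 10 weeks and 40.6, 37.8 and 50.2 at 12 weeks. All older mice of Ier2 stood above all younger mice, and its 12-week level was 1.08 above that at 4 weeks on the log2 scale (SE 0.184, adjusted p = 0.000619, edgeR), of which 57.4% was reached at 8 weeks.

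Ier3, a gene induced through NF-kappa B that acts on cell survival, ranged from 3.29 to 5.07 CPM at 4 weeks, 3.68 to 5.37 at 6 weeks and 5.33 to 6.96 at 8 weeks. It ranged from 6.18 to 10.1 at 10 weeks and 6.99 to 10.7 at 12 weeks, with the 8-week mice above the 4-week mice by a narrow gap. From 4 to 8 weeks 11.3% of all genes rose without overlap, and the change of Ier3 did not pass (adjusted p = 0.248, edgeR). Its log2 rise was 1.06 from 4 to 12 weeks (SE 0.238, adjusted p = 0.00288) and 0.88 from 4 to 10 weeks (SE 0.237, adjusted p = 0.0106, edgeR), and 45.1% of the rise was reached at 8 weeks.

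Egr1, a zinc finger factor that responds to growth signals and, in beta cells, to glucose, ranged from 36.0 to 53.1 CPM at 4 weeks and from 37.2 to 75.7 at 6 weeks. It ranged from 55.6 to 84.9 at 8 weeks, 59.3 to 76.2 at 10 weeks and 62.0 to 92.2 at 12 weeks. Its log2 change from 4 to 12 weeks was 0.68 (SE 0.254, adjusted p = 0.0380, edgeR), and the call was lost without the filter on low counts (adjusted p = 0.0927) and without any of the 4-week mice or the 12-week replicate 2 or 3 (0.0516 to 0.150). Over the 5 ages together Egr1 and Fos did not pass (adjusted p = 0.135 and 0.0903), whereas the other 8 members did, against 56% of all genes.

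Counted at each age against 4 weeks, no member was called at 6 weeks, where 0.0906% of all genes were. At 8 weeks Atf3, Fosb and Junb were called higher, 3 of 10 members against 1.86% of all genes. Ier2 was close to the threshold there, at a log2 change of 0.61 (SE 0.183, adjusted p = 0.0724, edgeR). At 10 weeks 6 were called higher, namely Atf3, Fosb, Junb, Jund, Ier2 and Ier3, against 22.5% of all genes. Fosl2 was close at that age (adjusted p = 0.0580, edgeR). The age of a first call is therefore not the age at which a rise began. Between 10 and 12 weeks edgeR called 0% of all genes, with 1245 genes at an unadjusted p under 0.05, and no setting tried called a member. At the study's own threshold, a fold change of at least 1.5 with an unadjusted p under 0.05, 6 members were higher at 8 than at 6 weeks (Atf3, Fos, Fosb, Jun, Junb and Ier2), against 8.4% of all genes. All 8-week mice stood above all 6-week mice for these 6 and for Jund, 7 members against 7.62% of all genes.

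The timing of Atf3 was compared with that of each partner by the log2 ratio of the partner to Atf3 in the same mouse, fitted by age with limma. Since Atf3 rose more than most genes, 84.6% of all genes lost ground against it between 4 and 12 weeks at an adjusted p under 0.05, and a falling ratio is therefore no mark of these members. All 9 ratios also share the few counts of Atf3 at 4 weeks. The SE and p-values below come from the fit without moderation across genes, an alternative chosen after seeing the data, because the errors of all ratios are shared through Atf3.

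From 4 to 12 weeks the ratio to Atf3 fell by 1.89 on the log2 scale for Jund (SE 0.251), by 1.68 for Fos (SE 0.457), by 1.52 for Jun (SE 0.337) and by 1.42 for Egr1 (SE 0.419). It fell by 1.05 for Ier3 (SE 0.345) and by 1.03 for Ier2 (SE 0.316). The adjusted p-values of these 6 ran from 9.89e-05 to 0.0144 in limma. They were the 6 of 9 ratios that passed in the moderated fit, and with Fosl2 7 of 9 passed in the unmoderated fit, where 84.5% of all genes fell. For Ier3 the ratio no longer passed in the moderated fit without the 4-week replicate 3 (-0.67, adjusted p = 0.0744).

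The smallest changes of ratio were those of Fosb and Junb, although that of Junb was close to that of Fosl2, given next. The ratios of Junb and Fosb changed by -0.62 (SE 0.292, adjusted p = 0.0673) and -0.27 (SE 0.373, adjusted p = 0.508, limma) from 4 to 12 weeks, and the SE of Fosb leaves room for a change in either direction. The Fosb change ran from -0.67 without the 4-week replicate 1 (adjusted p = 0.0868) to -0.04 without the 4-week replicate 3 in the moderated fit. From 4 to 8 weeks the Junb ratio changed by -0.69 (SE 0.292, adjusted p = 0.0460) and that of Fosb by -0.08 (SE 0.373, adjusted p = 0.854, limma). A permutation of the mice over the 5 ages gave p = 0.159 for Junb and p = 0.962 for Fosb, unadjusted over the 9 ratios.

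From 4 to 8 weeks 7 of 9 ratios fell at an adjusted p under 0.05 in the unmoderated fit, those of Fosb and Fos being the exceptions, against 86.3% of all genes. The Fosl2 ratio changed by -1.25 from 4 to 8 weeks (SE 0.260, adjusted p = 0.00138) and by -0.65 from 4 to 12 weeks (SE 0.260, adjusted p = 0.0370 in the unmoderated fit and 0.0549 in the moderated fit, limma). Between 8 and 12 weeks, a contrast added after seeing the data, it changed by 0.61 (SE 0.260), which did not pass (unadjusted p = 0.0413, adjusted p = 0.173). Over the 5 ages together the permutation p was 0.00285 for Fosl2, against 0.00065 for Jund, 0.00468 for Jun and 0.0194 to 0.0245 for Fos, Egr1, Ier2 and Ier3. With 3 mice against 3, an exact permutation test of any single step cannot go below 0.1.

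**Figure D3:**
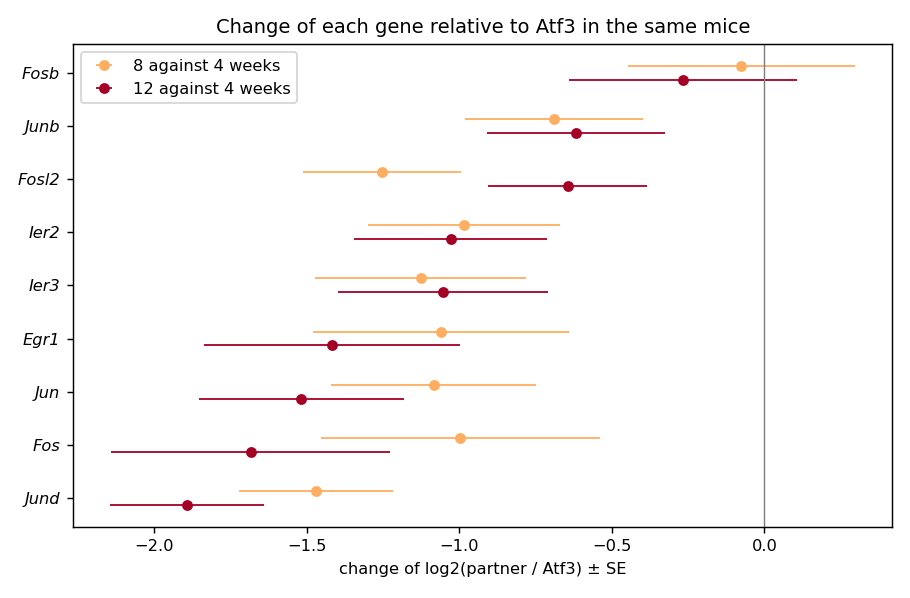
Change of the log2 ratio of each member to Atf3 in the same mice (horizontal axis), from 4 to 8 weeks and from 4 to 12 weeks, with the SE of the unmoderated fit. Fosb lay near 0 at both ages, while Fosl2 stood at -1.25 at 8 weeks and -0.65 at 12 weeks.

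Likeness to Atf3 was also measured over all genes, as the root mean square difference of log2 CPM over the 15 mice after subtracting each gene's own mean. Fosb ranked 56th (0.384) and Junb 65th (0.389) of the genes kept, Ier2 510th (0.505) and Fosl2 775th (0.552), with a median of 0.987 over all genes. Jund and Fos were the least alike of the members (0.817 and 0.803). The 5 genes nearest to Atf3 were Ccl9, a chemokine, at 0.214, then Fndc1 at 0.269, Fam26e at 0.271, Serpinf1, which encodes the secreted protein PEDF, at 0.272 and Anxa1, which encodes annexin A1, at 0.281.

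Levels between genes were compared per length, in the deposited TPM. At 4 weeks Jund was the most abundant member at 201 ± 24.3 TPM (SD, n = 3), followed by Jun at 60.6 ± 6.58 and Fos at 59.3 ± 17.1, which overlapped. Junb, Ier2, Egr1, Ier3 and Fosl2 followed without overlap at 38.6, 25.5, 20.1, 7.57 and 3.94 TPM, and Fosb at 1.73 ± 0.406 and Atf3 at 1.26 ± 0.489 overlapped at the bottom.

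At 12 weeks Jund was still first at 304 ± 29.1 TPM (SD, n = 3), and Junb had moved to second place at 145 ± 40.0. It overlapped Jun at 120 ± 28.5, which overlapped Fos at 103 ± 27.7, and Fos in turn overlapped Ier2 at 71.3 ± 15.5. Atf3 remained the least abundant member at 7.29 ± 2.50 TPM, overlapping Fosb at 8.51 ± 3.70.

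Of 30 other immediate-early genes listed, 29 passed the filter on low counts, 20 of them rose from 4 to 12 weeks and 1 fell, with a median log2 fold change of 1.17. Over all genes 26.3% rose and 27.2% fell in this comparison, 53.5% in all, and the median was -0.05. The strongest calls were Zfp36 at 2.14 (SE 0.247) and Zfp36l1 at 2.62 (SE 0.322), which encode proteins that destabilise cytokine mRNAs, and Klf2 at 2.68 (SE 0.313), a factor of quiescent T cells and endothelium. Gadd45a, a gene of growth arrest and DNA damage, fell by 0.49 (SE 0.171, adjusted p = 0.0275, edgeR). Against 4 weeks, 3 of the 29 had risen at 8 weeks, where 1.86% of all genes had.

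Of 15 other basic leucine zipper genes listed and tested, 7 rose from 4 to 12 weeks and 2 fell, with a median log2 fold change of 0.26; the share called is near the 53.5% of all genes. Batf, which pairs with Jun proteins in lymphocytes, rose by 4.05 (SE 0.907, adjusted p = 0.0028), Mafk by 0.35 (SE 0.0614) and Atf5 by 0.59 (SE 0.147, edgeR). Mafg fell by 0.62 (SE 0.102) and Atf2 by 0.31 (SE 0.0854). Atf4, the factor that carries the integrated stress response and can induce Atf3, changed by -0.00 (SE 0.132, adjusted p = 0.992, edgeR).

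Of 11 MAP kinases and MAP kinase kinases in the table, which act upstream of these genes, 3 rose and 4 fell from 4 to 12 weeks (median log2 fold change -0.10), a share called near that of all genes. Map2k6 rose by 1.26 (SE 0.255), Map2k3 by 0.51 (SE 0.134) and Map2k1 by 0.25 (SE 0.0685), while Mapk10, which encodes JNK3, fell by 0.82 (SE 0.146), Mapk3 by 0.39 (SE 0.0918) and Mapk8 by 0.28 (SE 0.0660). Of SRF and 5 of its partners, 4 rose and none fell (median 0.32), against 26.3% of all genes that rose, with Mkl1 at 0.75 (SE 0.141), Elk4 at 0.73 (SE 0.144) and Elk3 at 0.45 (SE 0.124).

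Of 10 genes of the integrated stress response, 4 rose, 1 fell and 5 did not pass, with a median of 0.20, again a share called near the 53.5% of all genes. Ppp1r15a, which restores translation, rose by 0.36 (SE 0.0737), Trib3 by 1.02 (SE 0.260) and the kinase gene Eif2ak1 by 0.19 (SE 0.0625), and Sesn2 fell by 0.39 (SE 0.0827). Among 4 cytokine genes known as targets or inducers of Atf3, Il1b rose by 3.01 (SE 0.530, adjusted p = 0.000737), Ccl2 by 2.29 (SE 0.570, adjusted p = 0.00506) and Tnf by 2.61 (SE 0.881, adjusted p = 0.0244), and Il6 changed by 1.10 (SE 0.798, adjusted p = 0.262, edgeR).

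**Figure D4:**
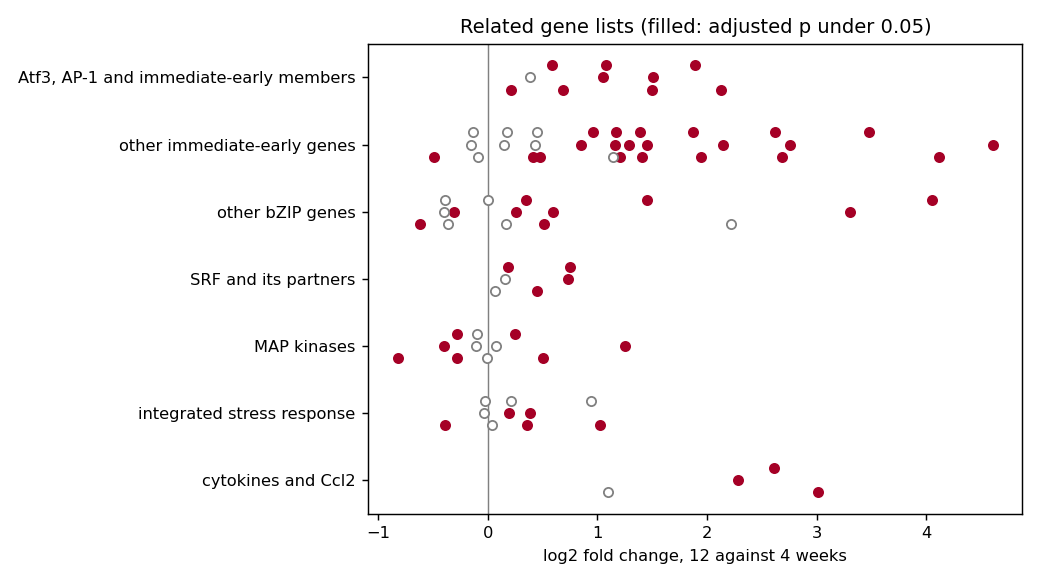
Log2 fold change from 4 to 12 weeks of each tested gene (points) by list, with filled points at an adjusted p under 0.05 in edgeR; the vertical offset within a list only separates points. The members and the other immediate-early genes lay mostly above 0, with medians of 1.07 and 1.17, and the MAP kinases on both sides of 0.

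The cell makeup of the islets moved with age too. From 4 to 12 weeks 22 of 22 leukocyte markers rose (median log2 fold change 4.65), 11 of 12 endocrine markers fell (median -0.90) and 8 of 8 fibroblast markers rose (median 2.15). Of the other lists, 4 of 8 endothelial and 4 of 6 intestinal markers rose, 3 of 8 duct markers rose and 2 fell, and 0 of 12 acinar markers passed. All 12 endocrine markers had counts in every library, with a sum of 13252 to 28640 CPM, and 4 leukocyte markers were at 0 counts in the 4-week replicate 3 and none in any other library. In whole islets, a change in the number of cells of a type and a change in RNA per cell cannot be told apart, and leukocytes express these members as well.

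Summed over the 22 leukocyte markers, the level ran from 45.9 to 240 CPM at 4 weeks and from 67.1 to 273 at 6 weeks. It was 175, 703 and 1013 in the 8-week replicates 1, 2 and 3, from 1055 to 2507 at 10 weeks and from 2060 to 2446 at 12 weeks. The 8-week replicate 1 thus lay inside the range of the younger mice. It held 4.23 CPM of Atf3, 11.02 of Fosb, 79.4 of Junb and 32.1 of Ier2, each above all 6 younger mice. These genes were named because every older mouse stood above every younger one, as in 2.75% of all genes. Their place in this mouse was therefore fixed by that choice and is no separate result. Of the other members, Fos, Jun, Egr1 and, by a narrow gap, Jund also lay above the younger mice. Fosl2 (15.6 CPM) and Ier3 (5.33 CPM) lay inside their range. The fibroblast marker sum of this mouse was 600 CPM, above the 294 to 539 of the younger mice.

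**Figure D5:**
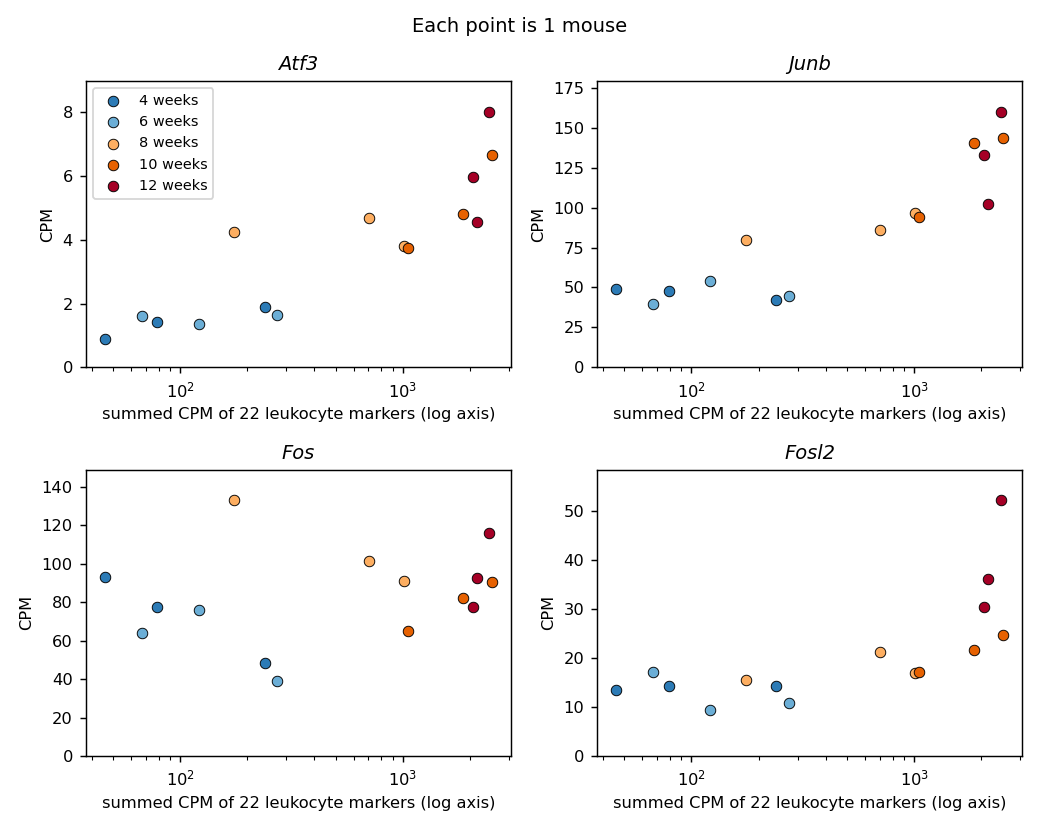
CPM of Atf3, Junb, Fos and Fosl2 in each mouse (vertical axes, linear) against the summed CPM of 22 leukocyte markers (horizontal axis, log scale), coloured by age. The 8-week mouse at 175 CPM of leukocyte markers lay above the younger mice for Atf3, Junb and Fos, and among them for Fosl2.

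With the mean log2 level of the leukocyte markers as a covariate, no member passed in any comparison, and over all genes 2 passed from 4 to 12 weeks. The covariate runs largely parallel to age, and the SE of Atf3 grew from 0.294 to 0.550 with it. The 4 to 12 week change of Atf3 was then 1.32 (adjusted p = 0.471, edgeR), that of Fosb 2.48 (SE 0.702, adjusted p = 0.248), that of Fos 1.59 (SE 0.460, adjusted p = 0.256) and that of Ier3 0.43 (SE 0.468, adjusted p = 0.829). How much of each member's rise came from the infiltrating cells was not tested.

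Transcripts of intestine were highest in 2 libraries, with a marker sum of 269 CPM in the 12-week replicate 1 and 112 in the 6-week replicate 2, and 43.8 to 88.6 in the other 13. Without both, 7 members rose from 4 to 12 weeks instead of 9, with the calls of Jun and Jund lost.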

How the data were processed

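Islet RNA of 15 female NOD mice was sequenced from polyadenylated libraries as read pairs. The authors trimmed, aligned and counted reads in CLC Genomics Workbench with default settings, and the submitters' processing notes name the mm10 build; whether counting used strand is not given in the sources used here. The deposited counts are whole reads per gene, not normalized, and the deposited TPM values were scaled by the authors per transcript length and library. TPM served to order genes by level. The other 30 per-sample columns (RPKM and CPM) were not used here.

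Genes were kept by filterByExpr (16554 of 48709), scaled by TMM and fitted with edgeR 4.0.16 (glmQLFit, glmQLFTest) in R 4.3.3, with a mean for each age; comparisons were contrasts of these means, with Benjamini-Hochberg adjustment over all genes kept and a threshold of 0.05. The authors compared ages with the Empirical Analysis of DGE of their software. CPM in the text are counts scaled by TMM, and log2 CPM used a prior count of 2. Ratios to Atf3 were differences of log2 CPM in a mouse, fitted by age with limma 3.58.1 for 16553 genes; its moderation borrows 24.3 prior degrees of freedom from genes whose ratios share Atf3, hence the unmoderated fit beside it. The share of a rise reached at an age was computed from mean log2 CPM. Single genes and ratios were tested by permuting mice over the 5 ages (100000 permutations), counting F statistics at least as large as the observed one. DESeq2 1.42.0, edgeR's exact test, other scalings, no filter, a leukocyte covariate and leaving out mice were alternatives.

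On simulated data for 12 against 4 weeks (16349 genes), 85.6% of 97 genes changed by 2 on the log2 scale and 58% of 100 changed by 1 were recovered, and 0.0186% of unchanged genes were called. Only those genes changed in the simulation, whereas 53.5% of all genes were called in the data. It held no shift in cell makeup and no other step, so its rates need not hold for the reported tests. No 2 libraries held identical counts. Nothing in the labels ties mice of the same replicate number across ages. Correlations of their deviations from the age means ran from -0.64 to 0.51 (mean r -0.08 over 30 pairs of mice). Pairs of unlike number ran from -0.58 to 0.55 (mean r 0.04 over 60 pairs). Labels give each mouse as a separate sample.

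The members and the gene lists were chosen with earlier results of these data known. The text names all members, from each list up to 3 genes called higher and 3 called lower from 4 to 12 weeks with the smallest adjusted p, the 4 cytokine genes, Atf4 and the genes overlapping members (named after their values were seen), and the 5 genes nearest to Atf3. Marker lists were read for leukocytes, endocrine, acinar, duct, endothelial and intestinal cells and fibroblasts. Promoter sequences came from RefSeq (GRCm38.p6) and exon counts from GENCODE on GRCm38; positions of all 10 members in the deposited table matched that assembly. Figures were drawn with matplotlib 3.10.9 in Python 3.11.15.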

Additional observations from a re-analysis of the deposited data

How the results depend on the processing

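Of 448 values recomputed under the alternatives, 386 kept their direction and their side of the threshold or stayed within 1.5 times the count, 35 no longer passed, 8 newly passed, 17 counts moved by more and 2 turned direction. From 6 to 8 weeks, 4 members passed in the exact test and 6 in DESeq2, where Atf3 changed by 1.46 and 1.47; leaving out a mouse gave 0 to 2 members, with Atf3 at 1.37 to 1.52, passing at 1.46 without the 8-week replicate 1. From 8 to 10 weeks 1 member (Junb) passed with library totals in place of TMM and in DESeq2, and 0 to 2 on leaving out a mouse, the 2 being Junb and Ier2 without the 10-week replicate 3. From 4 to 8 weeks 5 members passed in the exact test and 0 to 3 on leaving out a mouse, and Atf3 changed by 1.60 with the 2 ages fitted alone (adjusted p = 0.0563) and by 1.35 to 1.88 on leaving out a mouse. With the leukocyte covariate 0 members passed from 4 to 8, 4 to 10 or 4 to 12 weeks or over the 5 ages. Atf3 then changed by 1.16, 1.07 and 1.32, and from 8 to 10 weeks by -0.094, a turn of direction in a change that did not pass. From 4 to 6 weeks the change of Atf3, which did not pass either, turned to -0.11 without the 4-week replicate 3 and reached 0.42 without the 4-week replicate 1. The Fosl2 to Atf3 ratio from 4 to 12 weeks passed at -0.68 with a prior count of 0.5 and at -0.65 without moderation; on leaving out a mouse it ran from -0.87 to -0.41, that of Junb from -0.93 to -0.30 and that of Ier3 from -1.28 to -0.67, with Fosl2 passing without the 4-week replicate 1 or the 12-week replicate 2, Junb passing at -0.93 without the 4-week replicate 1 and Ier3 failing at -0.67 without the 4-week replicate 3. With library totals in place of TMM the median of all genes moved to 0.20 from 4 to 12 weeks. Without the filter on low counts edgeR called 186 genes from 4 to 8 weeks instead of 695. DESeq2, run with the filter, called 2010 genes from 4 to 8 weeks. With the replicate number as a block, 1 member (Atf3) passed from 4 to 8 weeks in place of 3, and 213 genes. Nothing in the labels ties these numbers across ages, and the block changed no other count of members by over 1.5 times. With 3 mice per age, and 25 to 51 counts of Atf3 at 4 weeks, small steps could not be resolved. The causes of these differences between settings were not tested.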

Other observations

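Within an age, the mouse with the highest Atf3 was also the mouse with the highest Fosl2 at 4 of the 5 ages, against 2 of 5 for Fos, Fosb, Jun, Junb, Jund and Egr1, 1 for Ier2 and 0 for Ier3; the median over all genes was 2, and 12.4% of all genes shared it at 4 or 5 ages. The spread between mice of an age was widest for Fosb at 6 weeks (SD 0.61 on the log2 scale) and narrowest for Jund at 8 weeks (SD 0.0047). Fos, Fosb, Fosl2, Jun and Egr1 all had their widest spread at 6 weeks, and Junb, Ier2 and Ier3 at 10 weeks.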
